A study of Mus musculus with 10 samples.

Results

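The clustered protocadherins are cadherin-type adhesion proteins encoded by the alpha, beta and gamma clusters, which lie one after the other on mouse chromosome 18. Every gene whose symbol begins with Pcdha, Pcdhb, Pcdhga, Pcdhgb or Pcdhgc was taken, which gave 57 of the 49568 genes in the table. Of these, 13 belong to the alpha cluster (36930184 to 37187661), 22 to the beta cluster (37264938 to 37524479) and 22 to the gamma cluster (37661793 to 37841873; all coordinates GRCm38, plus strand). The gamma cluster holds 12 A members, 7 B members and the 3 C-type members Pcdhgc3, Pcdhgc4 and Pcdhgc5.

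Each alpha and gamma gene has a variable exon of its own, behind its own promoter, which is spliced to constant exons shared by the whole cluster. The variable exon encodes the extracellular cadherin repeats and the membrane span, and the constant exons encode a common cytoplasmic tail. The beta genes consist of a variable exon alone and lack that shared tail. In neurons, each cell uses its own small set of these promoters, under the control of CTCF, cohesin and DNA methylation, whereas most C-type promoters are used more evenly. The proteins bind the same isoform on a neighbouring cell, and this matching is known for self-avoidance of dendrites and for neuronal survival. Outside the nervous system, methylation of these clusters has been described in several cancers.

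The libraries were mRNA-seq of 10 pancreatic cancer lines from mice, cultured in DMEM with serum, 1 library per line. Genotype KPC comprised lines A1081, A1620, A1625, A2031 and A2032, while genotype KPCAf/f comprised A1693, A1809, A1925, A2441 and A3992. Per line, values below follow this order. KPC denotes a widely used mouse model of pancreatic ductal cancer. The labels leave KPCAf/f unexplained; since the series title names ARID1A, a SWI/SNF subunit, it is taken here as KPC with floxed Arid1a. The driver of recombination, the ages of the mice and the number of clones per line are not given, nor is it said that each line came from its own mouse. A p-value here thus sets the difference between genotypes against the spread of these lines, which may fall short of the spread between mice. The comparison addresses which genes differ between lines of the 2 genotypes. Values in the text are gene counts normalized for library size (1 read is worth 0.818 to 1.32 normalized counts, depending on the line), and groups are given as mean ± SD over 5 lines.

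Arid1a itself lay between 820 and 3109 normalized counts in the KPC lines and between 1253 and 1785 in the KPCAf/f lines, so that the groups overlapped. The overlap came from A1620, at 820, alone. The other KPC lines lay at 1915 or more, above every KPCAf/f line. The Arid1a count takes in exons outside any deleted part and does not check recombination. Assigned reads ranged from 15124888 in A2441 to 20419830 in A1809. Longer transcripts were under-represented in KPC line A1620, by -0.54 log2 units per doubling of length against the average line. This slope lay between -0.02 and 0.03 in the remaining KPC lines, and between 0.08 and 0.16 in KPCAf/f. In KPCAf/f line A1693 the pancreatic transcription factor Pdx1 was at 2.70 normalized counts and E-cadherin (Cdh1) at 10.8, against at least 594 and 3143 in the other 9 lines. Pdx1 and Cdh1, picked from a list of 7 epithelial markers, go against its label of pancreatic cancer cells. From that list, Krt8 (2466), Krt18 (2808), Krt19 (608) and Epcam (15.3) were also lowest in A1693. These keratins were still well detected there, and Sox9, at 945, was highest there, so that the list as a whole is mixed. Reads of 4 Y-linked genes numbered 1148 to 3415 per KPC library and 0 to 3 per KPCAf/f library, so that these reads and genotype cannot be told apart. Xist, expressed from an inactive X chromosome, was at 1.96 to 6.63 normalized counts in the KPC lines, at 3.60 in A1693 and at 5278 to 18451 in the other 4 KPCAf/f lines.

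The gamma cluster carried most of the signal, the beta cluster little and the alpha cluster almost none. Over all 10 libraries the gamma members had 16469 reads, the beta members 1600 and the alpha members 13. A read was found for 49 members, and 33 reached 10 normalized counts in at least 1 line, 22 of them gamma and 11 beta. Pcdhgc3 was the only member at 10 or more in all 10 lines. The heatmap of all members in chromosomal order shows this gradient.

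**Figure D1:**
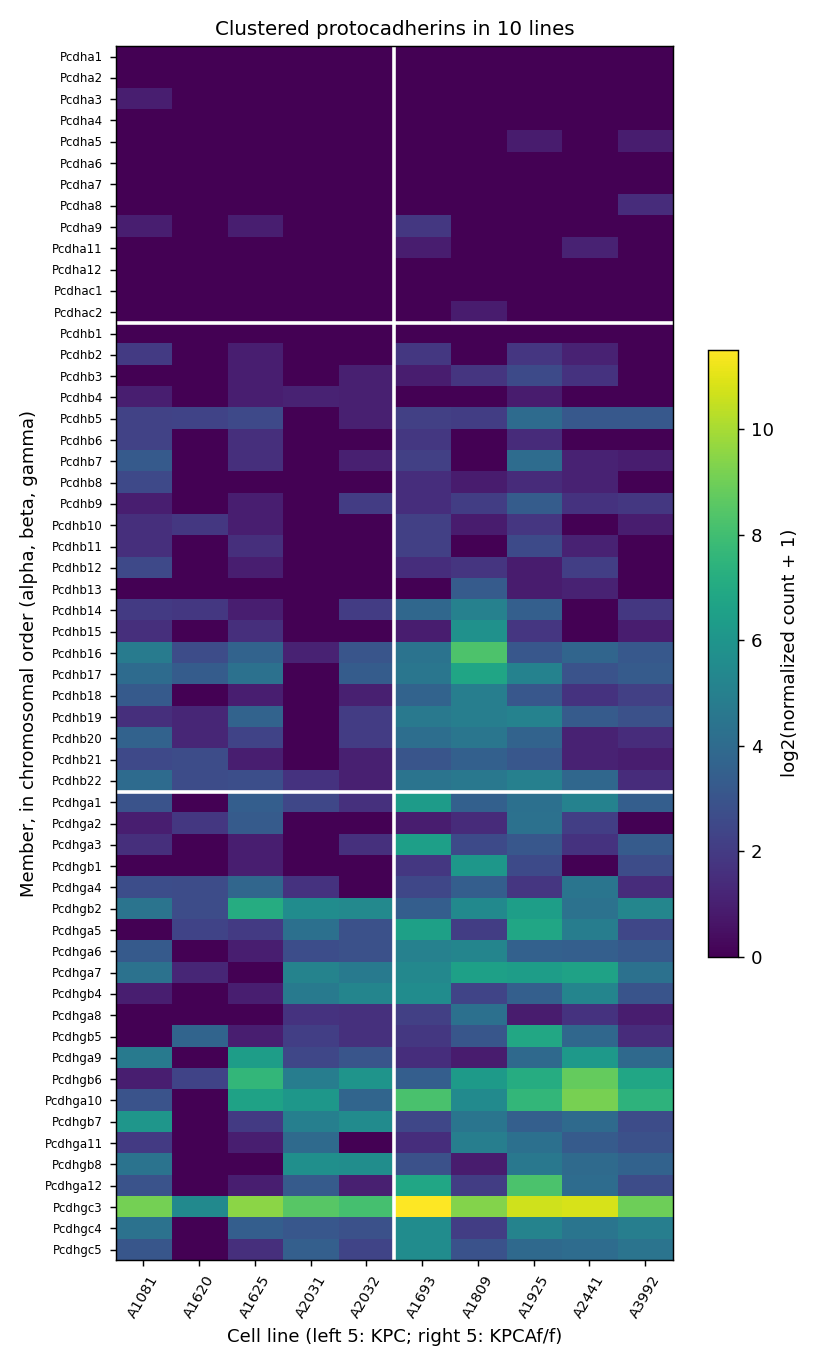
Level of each of the 57 clustered protocadherins, in chromosomal order, in the 10 lines, coloured as log2(normalized count + 1), with KPC and KPCAf/f lines set apart. The alpha members are near 0 in every line, the beta members are low apart from a block in A1809, and Pcdhgc3 is the brightest member in each line.

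Only 14 members, 3 beta and 11 gamma, reached 10 normalized counts in at least 5 of the 10 lines and entered the test across 13089 genes. Of these, 0 passed at an adjusted p under 0.05 (limma with Benjamini-Hochberg adjustment over all genes), where 1.75% of all tested genes did so in either direction. At an unadjusted p under 0.05 there were 4 members, Pcdhga10, Pcdhgc3, Pcdhga7 and Pcdhgc5, each higher in KPCAf/f, where 14.6% of all tested genes passed in either direction and 8.39% with the KPCAf/f lines higher. The edgeR quasi-likelihood test and limma-voom on the recovered reads called 0 members (1.31% and 0.802% of all genes), as did limma with array weights (4.48%). DESeq2, which called 5.58% of all genes, called 1, Pcdhgc3 (adjusted p = 0.0451). The fitted difference was positive, that is higher in KPCAf/f, for 11 of the 14 tested members and for 49.2% of all tested genes. Its median was 1.53 log2 units over the 14 members and -0.01 over all tested genes. None of these 14 had groups that did not overlap (0 of 14), where 4.53% of all tested genes did. The filter can pass a member mainly through the lines of 1 group. Pcdhb22, Pcdhgc4 and Pcdhgc5 each passed with 4 KPCAf/f lines and 1 KPC line, and no tested member had more KPC than KPCAf/f lines at 10. The signs and the median of the tested members are therefore not free of the filter. These counts also do not speak for the 43 members that were not tested.

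The number of members in use per line was larger in most KPCAf/f lines. At 10 normalized counts or more there were 11, 2, 9, 11 and 8 members in KPC lines A1081, A1620, A1625, A2031 and A2032 (8.2 ± 3.7). The KPCAf/f lines A1693, A1809, A1925, A2441 and A3992 had 18, 20, 25, 19 and 9 (18.2 ± 5.81). A3992 fell among the KPC lines, and the other 4 KPCAf/f lines lay above all of them. Of the 33 members that reached 10 anywhere, 20 did so in lines of both genotypes, 13 in KPCAf/f lines alone and 0 in KPC lines alone. Those 13, named here after their values were seen, were Pcdhb5, Pcdhb7, Pcdhb14, Pcdhb15, Pcdhb18, Pcdhb21, Pcdhga1, Pcdhga2, Pcdhga3, Pcdhgb1, Pcdhga6, Pcdhga8 and Pcdhga12. Pcdhb5, Pcdhb7, Pcdhb15, Pcdhb21, Pcdhga2, Pcdhga3, Pcdhgb1 and Pcdhga8 each reached 10 in 1 KPCAf/f line only. Pcdhb18 reached it in 2, Pcdhb14 and Pcdhga12 in 3, and Pcdhga1 and Pcdhga6 in 4. The share of all genes that reach 10 in lines of 1 genotype alone was not computed. The split and the numbers per line are therefore not set against a background. These counts and all sums over members are descriptions and carry no test.

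The summed level was also higher in most KPCAf/f lines, though lines with the most members in use did not have the largest sums. The 3 clusters together summed to 749 ± 455 normalized counts in KPC against 2640 ± 1203 in KPCAf/f. The KPC lines ran from 115 (A1620) to 1372 (A1625) and the KPCAf/f lines from 1035 (A3992) to 3999 (A1693), so that the groups overlapped at A1625 and A3992. Without A1620 the KPC mean was 908, and without A1693 the KPCAf/f mean was 2300.

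**Figure D2:**
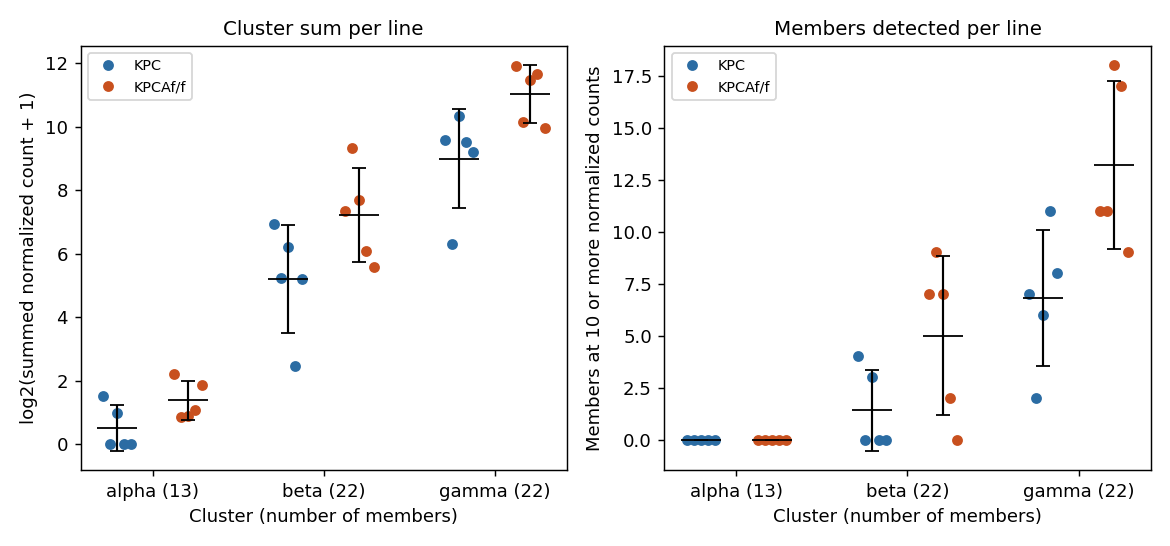
Left, summed normalized counts of each cluster per line as log2(sum + 1), and right, number of members at 10 or more per line, with 1 point per line and bars for mean ± SD of 5 lines. The gamma sums are the highest in both groups, A1620 is the lowest KPC point of the gamma cluster, and A1809 is the highest KPCAf/f point of the beta cluster.

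The alpha cluster, known for its role in the spread of serotonergic axons, was at the limit of detection in both genotypes. Its 13 members summed to 0.57 ± 0.85 normalized counts in KPC against 1.81 ± 1.25 in KPCAf/f. In reads, the KPC lines had 2, 0, 1, 0 and 0 in the order above, and the KPCAf/f lines had 4, 1, 1, 1 and 3. The ratio of the groups' read totals, 10 against 3 and scaled for depth, was 2.83 with an exact 95% interval of 0.73 to 15.98, which covers counting error only and includes 1. Pcdha9 had 5 reads in all, Pcdha5, Pcdha8 and Pcdha11 had 2 each, and Pcdha3 and the C-type member Pcdhac2 had 1 each. The other 7, among them the C-type member Pcdhac1, had 0 reads in every library, where a floor of 3 reads corresponds to between 2.46 and 3.97 normalized counts per library. No alpha member was tested, and a difference between genotypes was not detectable at this depth. The symbol Pcdha11 is used by 2 gene models in GENCODE M21, so its length was not used.

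The beta cluster was low in most lines and high in 1. Its 22 members summed to 122, 37.1, 73.4, 4.47 and 36.1 normalized counts in KPC lines A1081, A1620, A1625, A2031 and A2032. In KPCAf/f lines A1693, A1809, A1925, A2441 and A3992 they summed to 163, 647, 206, 67.5 and 46.7. The means were 54.6 ± 44.9 in KPC and 226 ± 245 in KPCAf/f, a ratio of 4.14 that fell to 2.21 without A1809. The difference of mean log2(sum + 1) was 2.0 with all lines, 1.47 without A1809 and 1.31 without A2031. The groups overlapped: A2441 and A3992 lay below KPC line A1081. Members at 10 or more numbered 4, 0, 3, 0 and 0 in the KPC lines and 7, 9, 7, 2 and 0 in the KPCAf/f lines.

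Pcdhb16 (chromosome 18, 37477814 to 37483038) set A1809 apart. Its level was 26.5, 5.3, 11.7, 1.12 and 7.22 normalized counts in the KPC lines and 19.8, 316, 7.59, 12.4 and 7.93 in the KPCAf/f lines. A1809 alone was above A1081, and the other 4 KPCAf/f lines lay within the KPC range. This 1 gene made up 48.8% of the beta sum of A1809. The log2 difference was 1.49 (SE 1.03, limma adjusted p = 0.522) and 0.55 when A1809 was left out.

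Pcdhb17 gave 15.1, 9.27, 18.6, 0 and 9.28 normalized counts in the KPC lines and 21.6, 106, 32.9, 6.75 and 8.81 in the KPCAf/f lines. The KPCAf/f lines A1693, A1809 and A1925 were above every KPC line, and A2441 and A3992 were not (log2 difference 1.51, SE 0.94, limma adjusted p = 0.481). That difference was 0.95 without A1809 and 0.76 without A2031, the KPC line at 0. Pcdhb22 averaged 5.92 ± 5.55 in KPC and 18.2 ± 11.2 in KPCAf/f (log2 difference 1.45, SE 0.78, limma adjusted p = 0.419; 1.09 to 2.05 when a line was left out). Its start overlaps the end of Pcdhb21 in the annotation, so reads there are uncertain. The untested Pcdhb19 was at 1.89, 1.32, 11.7, 0 and 3.09 in the KPC lines and at 24.3, 29.5, 32.9, 8.99 and 6.17 in the KPCAf/f lines. Its 3 highest lines were again A1693, A1809 and A1925.

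Levels along the beta cluster differed between its ends, a split chosen after the values were seen. Pcdhb14 to Pcdhb22, the members nearest the gamma cluster, summed to 41.5 ± 32.2 (KPC) and 197 ± 244 (KPCAf/f) normalized counts, or 90.4 ± 58.2 in KPCAf/f when A1809 was left out. Pcdhb1 to Pcdhb13 summed to 13.1 ± 13 and 28.7 ± 19.0. Per kilobase of exon that no other member shares, the stretch from Pcdhb14 on averaged 0.87 normalized counts in KPC against 4.15 in KPCAf/f (1.90 without A1809), and the stretch before it 0.30 and 0.65. Pcdhb1 had 0 reads in every library. A1809 was also the KPCAf/f line with 55.7 normalized counts of Pcdhb15 and 31.9 of Pcdhb14, both looked up after the fact.

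**Figure D3:**
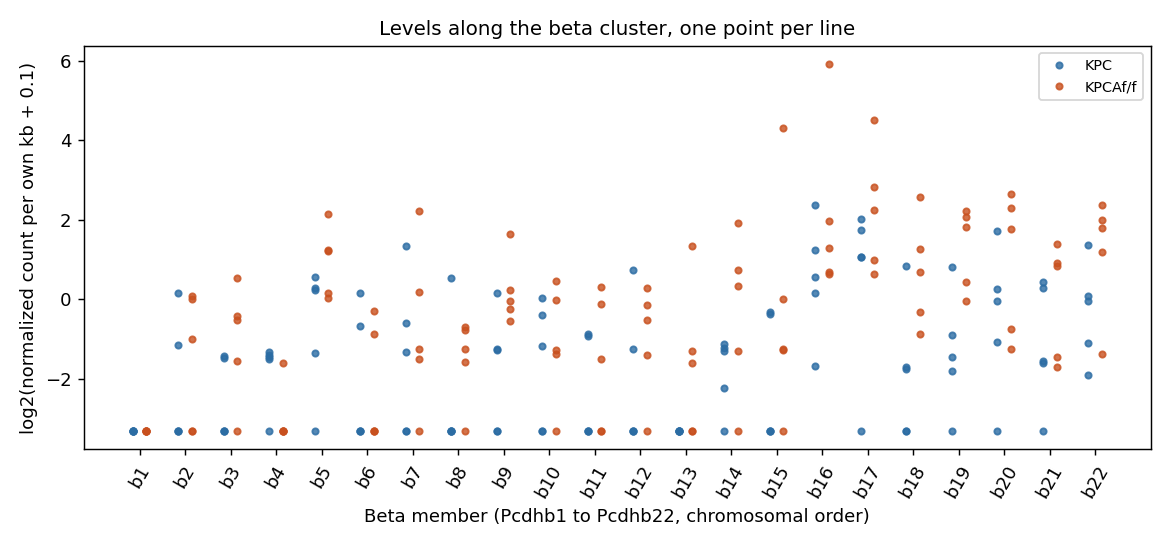
Level of the 22 beta members in chromosomal order, as log2(normalized count per own kilobase + 0.1), 1 point per line, with KPC and KPCAf/f lines in different colours. Points lie higher from Pcdhb14 on, and the highest point is Pcdhb16 in A1809 (316 normalized counts before division by length).

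The gamma cluster, whose C-type members in neurons support cell survival and whose other members mark single cells, was detected in every line. Its 22 members summed to 772, 78.2, 1297, 736 and 587 normalized counts in KPC lines A1081, A1620, A1625, A2031 and A2032. The KPCAf/f lines A1693, A1809, A1925, A2441 and A3992 had 3832, 1138, 2850, 3254 and 986. A1693, A1925 and A2441 were above every KPC line, while A1809 and A3992 lay below A1625. The means were 694 ± 437 and 2412 ± 1282, a ratio of 3.48. Without A1620 the KPC mean was 848 ± 310 (n = 4), and without A1693 the KPCAf/f mean was 2057 ± 1163 (n = 4). The difference of mean log2(sum + 1) was 2.04 with all lines, 1.36 without A1620 and 1.15 without both A1620 and A1693.

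The 3 gamma subfamilies differed in how far apart the genotypes lay. The A members summed to 109 ± 82.0 normalized counts in KPC against 580.1 ± 302 in KPCAf/f, a ratio of 5.33. The KPC lines reached at most 219 (A1625), and the lowest KPCAf/f line was at 252 (A3992), so that these sums did not overlap. The C-type members summed to 406 ± 267 and 1549 ± 999, a ratio of 3.81, and the B members to 179 ± 123 and 283 ± 182, a ratio of 1.58. Members at 10 or more numbered 2.20 ± 1.48 and 6.60 ± 2.30 among the A members and 3.2 ± 1.79 and 4 ± 2.12 among the B members. Whether the subfamilies differ in their response was not tested.

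Pcdhgc3 (chromosome 18, 37806364 to 37841873), a C-type member known outside the brain from epithelial cells, was the most abundant protocadherin of the 3 clusters. Its level was 554, 43.7, 722, 370 and 274 normalized counts in KPC lines A1081, A1620, A1625, A2031 and A2032. In KPCAf/f lines A1693, A1809, A1925, A2441 and A3992 it was 2910, 654, 1619, 1817 and 506. A1693, A1925 and A2441 were above all KPC lines, A1809 and A3992 lay inside the KPC range, and A1620 was the lowest line of all. The means were 393 ± 260 in KPC and 1501 ± 975 in KPCAf/f. A log2 difference of 2.12 with SE 0.74 missed the threshold (limma adjusted p = 0.216), and it was 1.45 without A1620 and 1.14 without both A1620 and A1693. Over the other settings and left-out lines its adjusted p ran from 0.0451, with DESeq2, to 0.376. Per kilobase of its own exon, Pcdhgc3 averaged 116 (KPC) and 444 (KPCAf/f) normalized counts, the highest of the 56 members with such a length. The antisense gene BC037039, with 112 reads in all, overlaps it. The strand setting of the authors' counting is not given, so a small part of these counts could belong to it.

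Pcdhgc5 and Pcdhgc4, the other C-type members, were low. Pcdhgc5 had 7.57, 0, 1.96, 10.1 and 4.12 normalized counts in the KPC lines and 46.8, 6.55, 14.3, 15.7 and 20.3 in the KPCAf/f lines. Only A1809 among the KPCAf/f lines fell inside the KPC range (log2 difference 2.08, SE 0.74, limma adjusted p = 0.224; 1.56 without A1620). Pcdhgc4, needed for survival of cortical interneurons, averaged 8.55 ± 6.87 in KPC and 27.2 ± 16.5 in KPCAf/f (log2 difference 1.70, SE 0.89, limma adjusted p = 0.402; 1.02 without A1620), with A1809 at 3.27.

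Pcdhga10 (37746993 to 37841873) had the smallest p of the tested members. It was at 6.63, 0, 96.9, 68.2 and 12.4 normalized counts in KPC lines A1081, A1620, A1625, A2031 and A2032 and at 289.9, 44.2, 197, 563 and 174 in KPCAf/f lines A1693, A1809, A1925, A2441 and A3992. A1809 alone of the KPCAf/f lines lay below the highest KPC line, A1625. The means were 36.8 ± 43.2 and 254 ± 194, and a log2 difference of 3.70 with SE 1.17 missed the threshold (limma adjusted p = 0.165). Over the other settings and left-out lines the difference ran from 2.42 to 4.39 (2.73 without A1620) and the adjusted p from 0.0639 to 0.322. Per own kilobase its mean was 14.1 (KPC) and 97.1 (KPCAf/f) normalized counts, next to Pcdhgc3 in rank.

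Pcdhga7 (37714764 to 37841873) followed. Its KPC lines were at 18.9, 1.32, 0, 34.6 and 24.7 normalized counts and its KPCAf/f lines at 40.5, 90.8, 84.3, 98.9 and 18.5. A3992 alone lay inside the KPC range (log2 difference 2.77, SE 1.01, limma adjusted p = 0.234), and the difference was 2.0 without KPC line A1625. Pcdhga9, the other tested A member, was highest in KPC line A1625 at 84.1 and in KPCAf/f line A2441 at 73.1, and its means of 24.3 ± 34.9 and 20.8 ± 29.9 differed by far less than their spread (log2 difference -0.04, limma adjusted p = 0.990).

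Some A members were high in 1 or 2 KPCAf/f lines and low elsewhere. Pcdhga12, untested, was at 111 normalized counts in A1693 and 305 in A1925, and at 15.7 or less in the other 8 lines. Pcdhga5, also untested, had 92.7 in A1693, 111 in A1925 and 28.1 in A2441, and 17.9 or less in the other 7 lines. Pcdhga3 reached 89.1 in A1693 and lay between 2.25 and 8.81 in the other KPCAf/f lines, with 0 to 2.06 in the KPC lines. It was the 1 member of 57 whose groups did not overlap, where 2.84% of all tested genes had KPCAf/f lines wholly above KPC lines and 1.69% wholly below. Pcdhga3 itself was not tested, so these shares come from an unlike set of genes. It was picked out after its values were seen and rests on 2 to 10 reads in the KPCAf/f lines other than A1693. KPC lines A1081 and A2032 had 2 reads each, as did KPCAf/f line A2441, so that these lines were separated only by the scaling for depth.

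None of the tested B members passed the test (limma), and only Pcdhgb6 and Pcdhgb4 kept the sign of their difference in every setting run. Pcdhgb6 (37742094 to 37841873) was at 0.95, 3.97, 199, 27.9 and 61.9 normalized counts in the KPC lines and at 9.90, 75.3, 138, 441 and 110.1 in the KPCAf/f lines. A1625 lay above every KPCAf/f line but A2441, and A1693 lay below 3 of the 5 KPC lines (log2 difference 2.13, SE 1.30, limma adjusted p = 0.470; 1.28 to 2.95 when a line was left out). Pcdhgb2 averaged 51.1 ± 52.5 in KPC and 39.4 ± 29.8 in KPCAf/f (log2 difference -0.05, SE 0.82, limma adjusted p = 0.981). Pcdhgb7 averaged 28.8 ± 27.7 and 11.2 ± 6.97 (log2 difference -0.30, SE 1.10, limma adjusted p = 0.914). Pcdhgb8, annotated as a polymorphic pseudogene, averaged 24.2 ± 25.3 and 11.4 ± 8.62 (log2 difference 0.04, SE 1.29, limma adjusted p = 0.991). For Pcdhgb2, Pcdhgb7, Pcdhgb8 and Pcdhga9 the sign changed when single lines were left out, so that no direction is given. Pcdhgb4 averaged 12.7 ± 17.1 and 21.0 ± 19.5 (log2 difference 1.56, limma adjusted p = 0.537), a difference of 0.96 without A1620, 2.28 without A2032 and 0.55 without both A1620 and A1693. Its highest KPC lines, A2031 at 24.6 and A2032 at 37.1, stood among the KPCAf/f lines A1693 at 46.8 and A2441 at 37.1. Pcdhgb1 and Pcdhgb5, untested, each had 1 high line: 67.9 in A1809 and 120 in A1925, looked up after the fact.

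**Figure D4:**
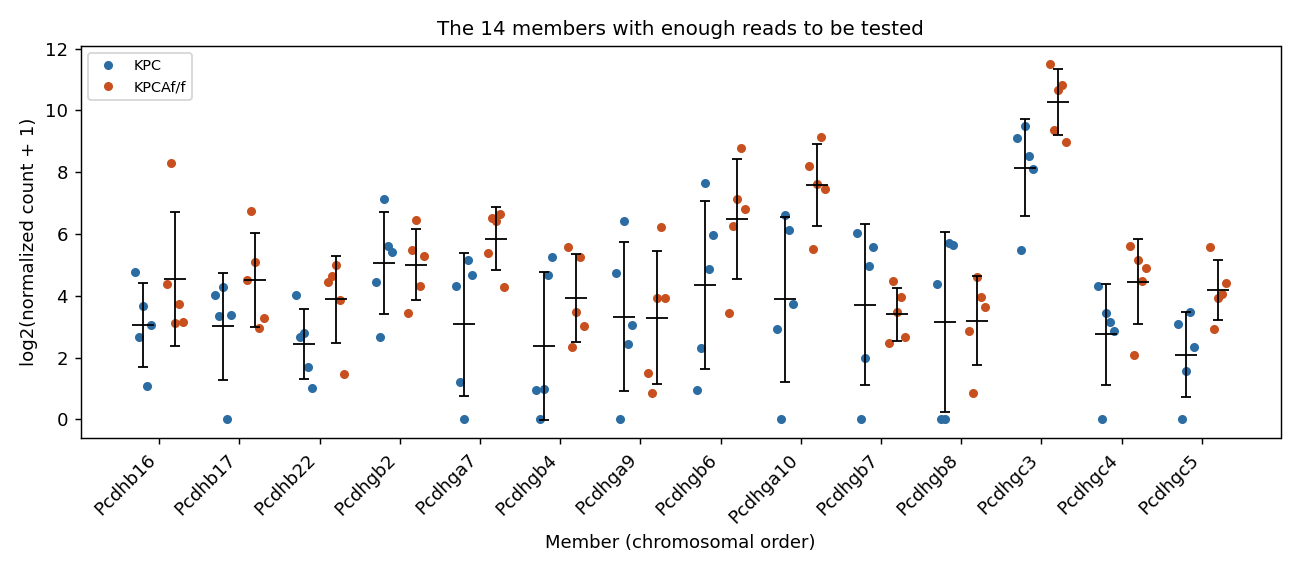
Normalized count of each of the 14 tested members on a log2(normalized count + 1) axis, 1 point per line, with mean ± SD of 5 KPC and 5 KPCAf/f lines. The groups overlap for every member, and the widest gaps between means are those of Pcdhga10 (3.70) and Pcdhga7 (2.77).

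Within the gamma cluster, the A members took a larger mean share in KPCAf/f and the B members a smaller one. The A members held 10.9%, 16.9%, 16.9%, 22.2% and 10.9% of the gamma sum in the KPC lines (15.6% ± 4.76) and 19.5%, 22.3%, 27.7%, 26.5% and 25.6% in the KPCAf/f lines (24.3% ± 3.36), and the groups overlapped only at KPC line A2031 and KPCAf/f line A1693. The B members held 26.7% ± 9.49 in KPC and 14.01% ± 6.94 in KPCAf/f, from 40.6% in A2032 to 2.16% in A1693. These shares were computed after the values were seen and carry no test. Pcdhgc3 held 56.1% ± 9.59 of the gamma sum in KPC and 59.5% ± 9.51 in KPCAf/f, with lines from 46.7% (A2032) to 75.9% (A1693). In A1620, with 59 gamma reads, the share was 55.9% (exact Clopper-Pearson 95% interval 42.4% to 68.8%, counting error only). The inverse Simpson number, the number of equally used members that would give the same evenness, was 3.02 ± 0.79 in KPC and 2.69 ± 0.57 in KPCAf/f. Without Pcdhgc3 it was 6.78 ± 2.15 and 6.46 ± 2.08. The member next to Pcdhgc3 was Pcdhga10 in A2031, A1693, A2441 and A3992, Pcdhgb6 in A1625 and A2032, Pcdhgb7 in A1081, Pcdhga7 in A1809, Pcdhga12 in A1925 and, at 11.9 normalized counts, Pcdhgb5 in A1620. Without Pcdhgc3 the cluster summed to 301 ± 199 normalized counts in KPC against 911 ± 432 in KPCAf/f, a ratio of 3.02. As a description over the 22 members, which share library and depth, the order of levels was most alike between A2031 and A2032 (Spearman rho 0.81) and between A2032 and A3992 (rho 0.68), a pair of different genotypes.

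**Figure D5:**
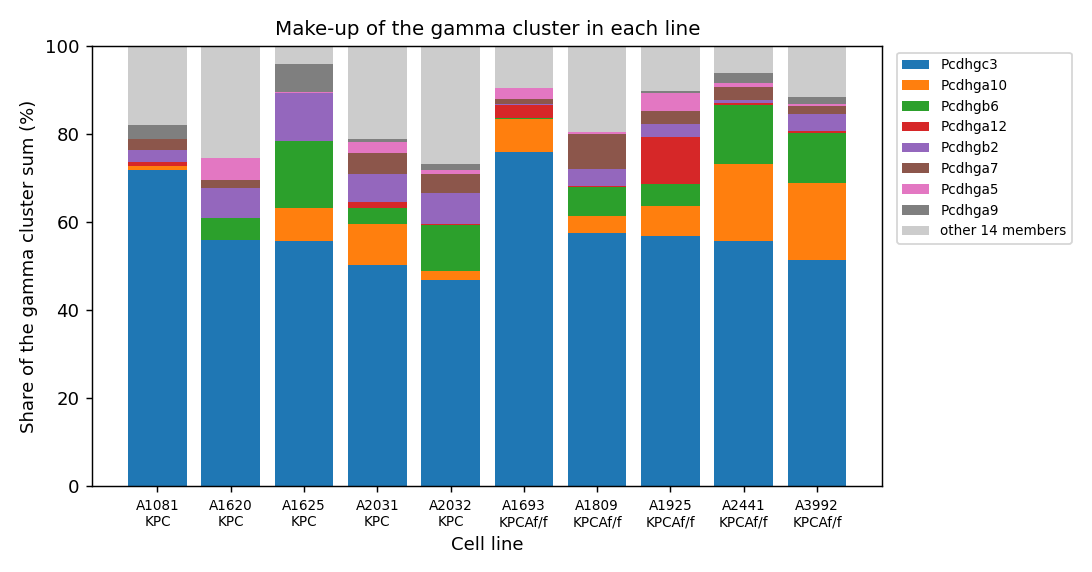
Share of the gamma cluster sum, in percent, held by each of 8 members and by the other 14 together, as stacked bars per line. Pcdhgc3 takes between 46.7% and 75.9% in each line, and the member next to it changes from line to line.

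Of 24 genes that regulate the clusters, all tested, 0 were called in either direction (1.75% of all tested genes) and 2 had an unadjusted p under 0.05 (14.6% of all tested genes). The median log2 difference was 0.22. Those 2, looked up after the fact, were Dnmt3a and Rest. Dnmt3a, a de novo DNA methyltransferase, was at 480, 302, 657, 453 and 593 normalized counts in the KPC lines and at 742, 1214, 763, 1062 and 922 in the KPCAf/f lines. Its groups did not overlap, and its log2 difference of 0.94 (SE 0.25) was short of a call (limma adjusted p = 0.101). Rest, a repressor of neuronal genes, averaged 840 ± 268 and 1225 ± 179 with overlapping groups (limma adjusted p = 0.331). Ctcf, the factor that loops enhancers to these promoters, averaged 2135 ± 577 normalized counts in KPC against 2050 ± 346 in KPCAf/f (log2 difference -0.03, limma adjusted p = 0.969, with a sign that changed between settings). The cohesin subunit Rad21 averaged 7336 ± 3047 and 8226 ± 1528 (limma adjusted p = 0.714), and Smchd1, a repressor of the clusters, 2086 ± 957 and 2538 ± 525 (limma adjusted p = 0.604). Setdb1, a histone methyltransferase known to repress protocadherins, averaged 1715 ± 604 and 1826 ± 267 (limma adjusted p = 0.795), and Wiz, a zinc finger protein, 1760 ± 550 and 1837 ± 398 (limma adjusted p = 0.866). These 4 changed sign in at least 1 other setting. Dnmt3b, the DNA methyltransferase that methylates these promoters in the embryo, averaged 32.2 ± 26.2 and 104 ± 119, with 318 in A1809 (log2 difference 1.63, limma adjusted p = 0.343; 1.10 without A1809).

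Binding partners and signalling genes of the protocadherins counted 21 tested of 24, with 0 called higher and 1 called lower in KPCAf/f (background 0.39%). That gene, Abi3, an adaptor of the actin-regulating WAVE complex, was at 214, 132, 93.9, 124 and 178 normalized counts in the KPC lines and at 0.90, 0.82, 14.3, 73.1 and 0.88 in the KPCAf/f lines. The groups did not overlap (log2 difference -4.60, SE 0.99, limma adjusted p = 0.0438), and the call was lost in 14 of 21 other settings, with adjusted p up to 0.254.

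Of the genes beside or within the clusters, 19 of 22 listed were tested and 0 were called, where 1.75% of all tested genes were called. Their median log2 difference was -0.16. Taf7, a gene between the beta and gamma clusters, averaged 96.6 ± 30.8 and 84.5 ± 21.6 (log2 difference -0.18, limma adjusted p = 0.816).

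Outside the clusters, 3 of 11 tested protocadherins and atypical cadherins were called, all higher in KPCAf/f (background 1.36%). Of the 21 genes listed, the 11 tested had a median log2 difference of 2.23, with a range from -2.83 to 7.79. The tested genes with a negative difference, looked up after the fact, were Pcdh1 (-2.83), Celsr1 (-2.52), Celsr2 (-1.50) and Fat1 (-0.09). None of those was called. Pcdh19, an X-linked delta protocadherin, was at 1.89, 1.32, 0, 14.5 and 2.06 normalized counts in the KPC lines and at 3300.3, 66.3, 2713, 725 and 385 in the KPCAf/f lines. The groups did not overlap (log2 difference 7.79, SE 1.07, limma adjusted p = 0.00316), although limma-voom gave an adjusted p of 0.157. Pcdh18, a related delta protocadherin, was at 0 to 13.2 in the KPC lines and at 402, 30.3, 354, 644 and 65.2 in the KPCAf/f lines (log2 difference 5.88, SE 0.95, limma adjusted p = 0.00883, limma-voom adjusted p = 0.109). Dchs2, a giant dachsous-type cadherin, was at 0 to 4.73 and at 81.9, 40.1, 20.2, 48.3 and 51.1 (log2 difference 4.79, SE 0.62, limma adjusted p = 0.00247). Dchs2 thus passed the filter through the KPCAf/f lines alone, and for Pcdh19 and Pcdh18 these lines were enough to pass. The 3 calls and the median of 2.23 are therefore not free of the filter. A1809 was the lowest KPCAf/f line for Pcdh19 and Pcdh18 and the highest for the beta cluster.

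Markers of other cell types moved with genotype in part. The 7 fibroblast markers summed to between 61.9 and 169 normalized counts in the KPC lines and between 13581 and 76576 in the KPCAf/f lines. All 4 tested ones were called higher (1.36% of all tested genes). Among them, Col1a2 and Pdgfrb reached 10 normalized counts in the KPCAf/f lines alone, so that this count is not free of the filter. Lum, looked up after the fact, was at 0 in every KPC line. A1693 had both the highest fibroblast sum and the highest gamma sum, but 71336 of its 76576 fibroblast counts were Col1a2 alone. Of the other markers, Lum was highest in A1693 (126) and Col1a1 was lowest there among the KPCAf/f lines (3259). Pdgfra, Pdgfrb, Dcn and Thy1 in A1693 lay within the range of the other KPCAf/f lines. The 7 pancreatic epithelial markers summed to between 117144 and 266193 in KPC and between 6855 and 113476 in KPCAf/f, so that these sums did not overlap. Of the 7, 0 were called in either direction (1.75% of all tested genes) and 3 had an unadjusted limma p under 0.05 (14.6%). Krt18, looked up after the fact, was the 1 epithelial marker of 7 whose groups did not overlap. Among all tested genes, 4.53% did not overlap in either direction, and 1.69% had KPCAf/f lines wholly below KPC lines. Krt18 was higher in KPC (limma adjusted p = 0.131). The sums of the 10 neuronal markers overlapped, at 126 to 1436 and 299.8 to 1922, with 0 of the 4 tested called (1.75% of all tested genes). Stmn2, looked up after the fact, was at 0 to 15.9 in the KPC lines. In the KPCAf/f lines it was at 14.4, 53.2, 449, 5.62 and 395 (log2 difference 4.5, limma adjusted p = 0.125). Tubb3 averaged 111 ± 71.1 and 255 ± 326 and Map2 328 ± 503 and 585 ± 638, whereas Rbfox3, Elavl3 and Elavl4 averaged under 1 normalized count in both groups. The sums of Schwann cell, leukocyte and endothelial markers also overlapped. The part of these markers, of the length trend and of the Y-linked difference in the protocadherin values was not tested. In bulk libraries, fewer cells with a transcript and less transcript per cell cannot be told apart.

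In the annotation, the gamma members share their constant exons, and a median of 55.3% of a gamma member's exonic bases, and 46.4% of an alpha member's, belong to it alone. Whether reads in the shared exons were assigned, split or dropped is not given in the sources used here. Levels of single gamma and alpha members are therefore uncertain to that extent. The beta members overlap only where Pcdhb21 and Pcdhb22 meet.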

How the data were processed

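One library per line was sequenced from stranded mRNA, per the labels' protocols. Per the submitters' processing notes, STAR 2.5.2b, Trimmomatic 0.36 and bcl2fastq 1.8.4 were used with featureCounts from Subread 1.5.0p3, then DESeq2 1.14.1 under R 3.3.2; mm9 and GRCm38.p5 are both listed, without saying where each was used. What the authors deposited is a signal per gene and library: read counts scaled by DESeq2 size factors. Dividing by the worth of 1 read gave whole reads within 0.001 read for 100% of values.

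The test was limma 3.58.1 (R 4.3.3) with an intensity trend on log2(normalized count + 1), two-sided, over the 13089 genes at 10 or more in at least 5 lines, with no covariate. Fold changes on this scale understate low genes. It was tested on simulated data first. Alternatives were limma-voom, DESeq2 1.42.0 and edgeR 4.0.16, each run on recovered reads, array weights, TMM and quantile scaling, other pseudocounts and filters, each line left out, and A1620 with A1693 left out. Positions and own exon lengths come from GENCODE M21 (GRCm38). Figures used matplotlib 3.10.9.

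Members named are the C-type genes, the 4 highest means of alpha, beta, gamma A and gamma B over all lines, the 6 smallest p, and the largest of its cluster in any line; context genes are a fixed few plus those called. Pcdhga9 and Pcdhgb4, tested but outside this rule, were added to give all tested members. Single cell type markers were picked from their lists after their values were seen. The text marks any other gene chosen in that way. The members and lists were chosen with earlier results of these data known.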

Additional observations from a re-analysis of the deposited data

Results flagged for a closer look

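Of 47 groups of 5 lines examined, 7 had 1 line set apart from the other 4 by a gap of more than 0.71 of the group's range, on the log2(value + 1) scale. Chance marks about 1 in 20 groups of continuous values, a rate that does not hold for groups at 0 in 4 lines, where any read sets the line apart. Among the alpha members these were Pcdha3 in KPC line A1081 (0.947 normalized counts), Pcdha8 in KPCAf/f line A3992 (1.76), Pcdha9 in KPCAf/f line A1693 (2.70) and Pcdhac2 in KPCAf/f line A1809 (0.818). The other 4 lines were at 0 in each case, and the line named had 1 to 3 reads. Pcdhb16 was at 316 in A1809 and at 7.59 to 19.8 in the other KPCAf/f lines. Pcdhb17 was at 0 in KPC line A2031 and at 9.27 to 18.6 in the other KPC lines. The gamma cluster sum was 78.2 in KPC line A1620 and 587 to 1297 in the other KPC lines.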

How the results depend on the processing

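The 0 members called became 1 with DESeq2 and stayed 0 in the other 20 settings, each line left out included. The 4 context genes called became 2 with a mean of at least 50 and 2 with limma-voom, and ranged from 3 to 5 when a line was left out. The mean number of members in use depended on the threshold: at 1, 5 and 30 normalized counts it was 24.8, 13.6 and 4 in KPC and 36.0, 24.6 and 9 in KPCAf/f. When a line was left out it was 7.5 to 9.75 and 16.5 to 20.5. The differences of mean log2(sum + 1) stayed positive in the 14 settings each, at 0.34 to 1.28 (alpha), 1.31 to 2.43 (beta) and 1.15 to 2.37 (gamma).

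Some small differences changed sign, and the cause was not tested. With a line left out, the log2 difference ranged from -0.65 to 0.47 for Pcdhgb2, -0.88 to 0.73 for Pcdhga9, -1.23 to 0.28 for Pcdhgb7, -0.75 to 0.68 for Pcdhgb8, -0.21 to 0.091 for Ctcf, -0.086 to 0.47 for Rad21, -0.086 to 0.30 for Setdb1 and -0.11 to 0.22 for Wiz. Pcdhga9 was at 0.038 with a pseudocount of 0.5. Pcdhgb8 was at -0.30 with a pseudocount of 4, -0.22 with quantile scaling, -1.07 with edgeR, -1.09 with DESeq2 and -0.67 without A1620 and A1693. Ctcf was at 0.035 with quantile scaling. With array weights, Rad21, Smchd1, Setdb1 and Wiz were at -0.12, -0.032, -0.15 and -0.14, and without A1620 and A1693 at -0.090, -0.030, -0.13 and -0.066.

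No paired analysis was possible because the labels give no replicate numbers shared between the genotypes. The planned description of promoter motifs was not run, since the promoter table used held none of the members. Low read numbers limit the alpha cluster and most beta members, most of which were not tested.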
